A study of Oryza sativa with 10 samples.

Results

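Root tissue of the japonica rice Zhonghua 11 (Oryza sativa) was compared with the 3 other dissected tissues of the same series: embryo, endosperm and leaf. The comparison used all 8 arrays of these tissues, of 10 in the series. Root and leaf came from seedlings 7 days old, embryo and endosperm from seed taken 6 days after anthesis, and the series also holds the whole seedling at 10 days, which was left out of the contrast. Every tissue had 2 arrays from separate biological repeats. The plants were grown in a phytotron, the labels name no mutant, transgene or treatment, and the root's growth medium is not given in the sources used here. A sample was a whole organ, so each value is a mean over many cell types, and fewer cells of a type cannot be told apart from less RNA per cell. Each tissue weighed equally in the mean that root was set against.

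Roots take up water and ions from the soil, sort them at an endodermis and exodermis sealed by Casparian strips and suberin, and load them into the xylem. Rice roots are known for their silicon channels, for nicotianamine and phytosiderophore chemistry that brings in iron, and for diterpenoid phytoalexins, the momilactones and phytocassanes. The leaf makes sugar, and the young endosperm and embryo lay down starch, storage proteins and the proteins of maturation.

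Of 57258 probe sets that were not controls, 30014 had a signal of at least 100 on at least 2 arrays and were tested. A probe set was called where its Benjamini-Hochberg adjusted p in limma was under 0.05 and its difference at least 2-fold. All differences are log2 of the signal plus 16, so they understate the change of low signals. No detection calls were used, so a signal under 100 is not told apart from background.

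Root was higher than the mean of the 3 tissues in 4843 probe sets (16.1% of those tested) and lower in 3159 (10.5%). The higher probe sets named 3317 genes and the lower ones 1755 genes. The median difference was 2.1 among the higher and -1.63 among the lower. A difference of at least 4-fold was found in 2602 of the higher and 1029 of the lower probe sets, and one of at least 16-fold in 451 and 203. Both root arrays lay above all 6 arrays of the other tissues in 3401 probe sets (11.3%) and below all 6 in 1699 (5.66%). Root was thus on the high side in 60.5% of the calls, and in 79.4% when arrays were scaled to their spike-in controls, which moved the median of all tested probe sets from -0.01 to 0.37 and left 6289 higher and 1627 lower.

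The gap to the next highest tissue differed from the difference to the mean. In 1022 of the 4843 higher probe sets (21.1%) another tissue was in fact above root, and the median gap was 0.73. Among the 3159 lower probe sets another tissue was below root in 1091 (34.5%). Root lay a median of 0.31 below the lowest of the 3 tissues in these 3159. Leaf was the next highest tissue in 3529 of the 4843 (72.9%), embryo in 781 and endosperm in 533. There were 2372 probe sets called higher than embryo and than endosperm but not higher than leaf. Root was called higher than each of the 3 tissues in 1225 probe sets of 810 genes (4.08% of those tested), with a median gap of 2.18 and a gap of at least 32-fold in 57. On 393 of the 1225 no array of the other 3 tissues reached a signal of 100. Fewer probe sets were higher than each with either leaf array left out, where root minus leaf was estimated from fewer arrays and so less precisely. Root was called lower than each of the 3 tissues in 340 probe sets of 236 genes (1.13%), by a median of 1.52 below the lowest of the 3. Without leaf array 1 or 2 these were 188 and 180, and without root array 1 they were 514.

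Against single tissues, root was higher than endosperm in 7923 probe sets (26.4%), than embryo in 5668 (18.9%) and than leaf in 2661 (8.87%). It was lower than endosperm in 5297 (17.6%), than embryo in 4622 (15.4%) and than leaf in 3274 (10.9%). Leaf and root, both vegetative organs of one age, thus had the fewest calls in both directions.

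**Figure D1:**
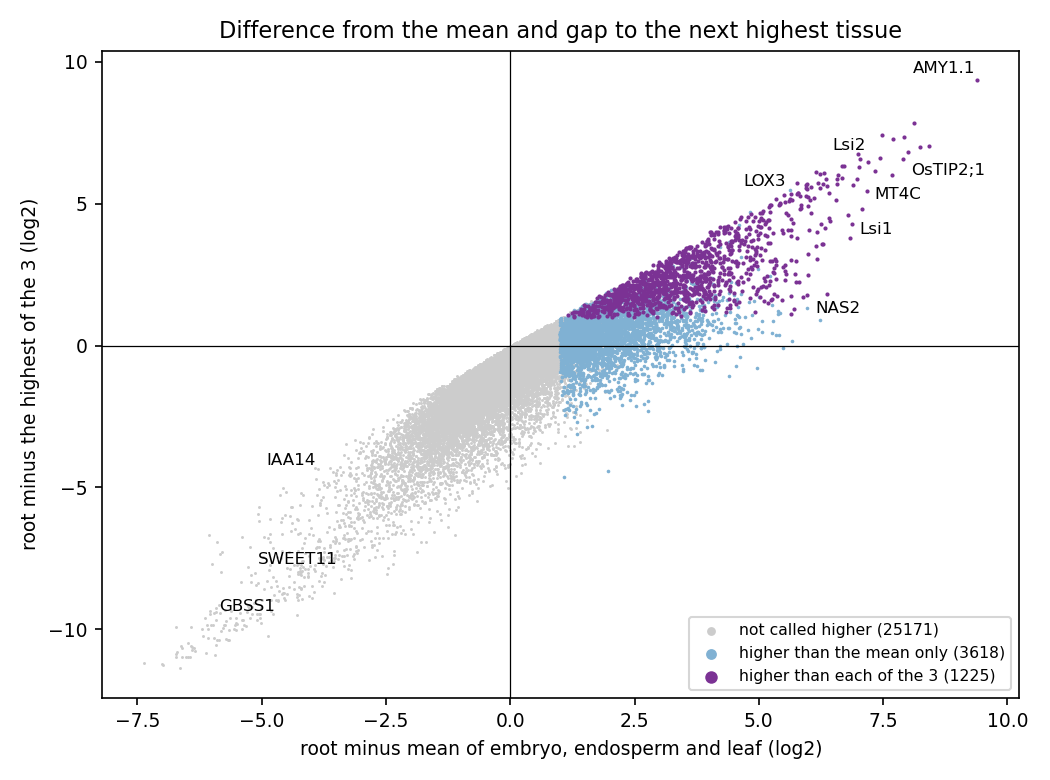
Each point is a tested probe set, with the log2 difference between root and the mean of embryo, endosperm and leaf on the x axis and root minus the highest of the 3 tissues on the y axis. The 1225 purple points were higher than each tissue; NAS2, with a difference of 5.98, lies low on the y axis because leaf stood only 1.34 below root.

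The root arrays differed from each other more than those of embryo, leaf and seedling did. Their correlation over tested probe sets was 0.905, against 0.926 for endosperm and 0.972 to 0.983 for the other tissues, and 25% of tested probe sets were at least 2-fold apart. Of all tested probe sets 13.8% were at least 2-fold higher on root array 1 and 11.2% on root array 2. Spread was estimated as 1 value per probe set, shared by all 5 tissues. Where the root arrays lay further apart than those of other tissues, ± and adjusted p thus understate root's own spread. The Gapdh 3′/5′ signal ratio, a measure of RNA integrity, was 2.04 on root array 1 and 24 on root array 2. On the embryo arrays it was 1.82 and 1.65, on the endosperm arrays 4.71 and 5.28 and on the leaf arrays 26.3 and 29.1. The part of this ratio in the results was not tested. With that ratio as a covariate 5061 probe sets were higher than the mean, 3317 lower and 761 higher than each. Within a tissue the ratio differed mainly between the root arrays. This fit therefore cannot separate the ratio from any other difference between the root arrays, and draws no line between tissues by RNA integrity. With 1 root array left out, 3103 of the 4843 higher calls and 1637 of the 3159 lower calls were made both without root array 1 and without root array 2. Of the 1225 probe sets higher than each, 619 were so in both. A value that moved by more than 1.5-fold without a root array is followed by its values without root array 1 and without root array 2, in that order.

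The labelled organ was checked against genes known to mark it. Lsi1, Lsi2 and OsCASP1, genes of the root silicon channels and of the Casparian strip, were 5.23 to 7.43 above the mean of the other tissues. Other root markers were mixed. SCR1, of the radial pattern pathway, was not called (0.97), at 148 and 196 in root against 305 and 280 in leaf. None of 7 root hair genes was called. Uptake genes were higher in 10 of 17 for nitrate and ammonium, 4 of 13 for phosphate and 11 of 21 for iron. Over all tested genes 19.6% were higher. QHB, the homeobox gene of the quiescent centre, read 159 and 256 in root and was higher than the mean (1.24 ± 0.33 SE, adjusted p = 0.0172 in limma), but embryo at 164 and 155 overlapped it. Its call was lost without root array 2 or leaf array 1. The same held with an added constant of 64, quantile normalization, array weights and a test against 2-fold. Of 11 seed storage genes 10 were lower in root, among them GLUA-1, a glutelin gene, at 9.5 and 2.75 against 50485 and 39544 in endosperm. The other, GLB, read 4401 and 4713 in root and was not called (0.51). Photosynthesis transcripts were not absent. The 6 photosystem and light-harvesting genes found by name summed to 26655 on root array 1 and 5772 on root array 2. Their sums were 70080 and 56119 in leaf, 1758 to 2531 in embryo, and 4294 and 30362 in endosperm. The part of leaf transcripts in the results was not tested.

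The 15 named genes with the largest differences, chosen where both root arrays lay above all 6 arrays of the other tissues, were led by AMY1.1. This alpha-amylase gene, of a family known for breaking down starch in germinating grain, read 15001 and 10000 in root and 0.335 to 4.17 on the 6 arrays of embryo, endosperm and leaf. Its difference of 9.40 ± 0.44 (adjusted p = 9.72e-07) and its gap of 9.36 were both the largest of any named gene. The whole seedling lay between, at 1661 and 489. OsTIP2;1, a water channel of the vacuolar membrane, read 12397 and 16543 in root, at most 136 in leaf and at most 71.3 in endosperm and embryo (7.91 ± 0.38, adjusted p = 9.93e-07). In the seedling it read only 256 and 120. The metallothionein gene MT4C was at 25339 and 13464 in root and next highest in leaf, at 353 and 469 (7.18 ± 0.49, gap 5.45).

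Others of the 15 came from several functions. RAA1, named for its effect on root architecture, read 3087 and 4188 in root and no more than 62 in embryo, endosperm and leaf (6.37 ± 0.46). OsCASPL1U3, a CASP-like membrane protein gene, read 8126 and 3185 in root and about 270 in leaf, at 265 and 274 (6.32 ± 0.44; 5.65 and 7.00). AT4 stood at 7011 and 5516 against 446 and 559 in leaf (6.27 ± 0.31). CML29, a calmodulin-like gene, was also well expressed in leaf, at 1737 and 1705 against 10273 and 3115 in root, so that its difference of 5.89 (5.03 and 6.75) went with a gap of only 1.71.

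Of genes known here by identifier alone, LOC4335846 read 6006 and 6658 in root and no more than 18.6 in embryo, endosperm or leaf (8.11 ± 0.44). LOC4331301 read 21397 and 5720 against at most 63 in those tissues (7.92 ± 0.52; 6.97 and 8.87).

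**Figure D2:**
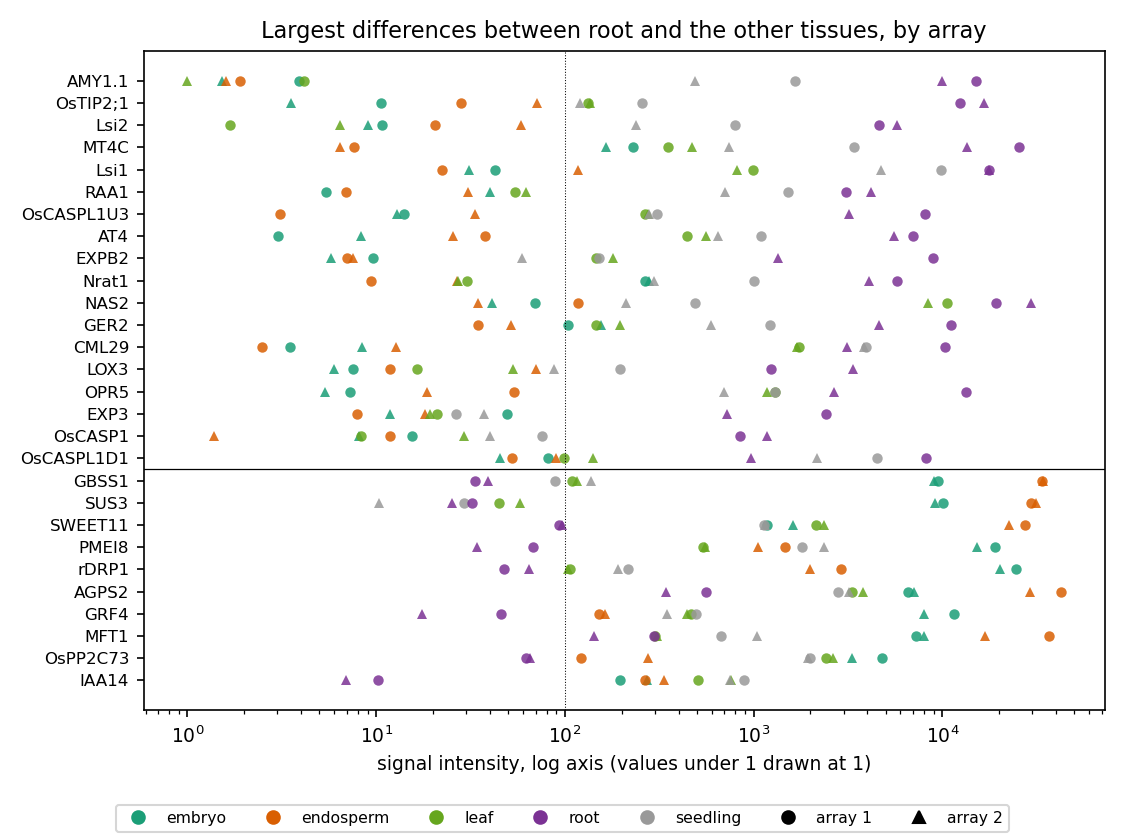
Signal intensity (log axis) on each array for the named genes with the largest differences or gaps above (upper block) and the largest differences below (lower block); colours are tissues, circles array 1 and triangles array 2, and the dotted line marks 100. Both root arrays lie to the right of all 6 arrays of embryo, endosperm and leaf in the upper block and to the left in the lower one, whereas the grey seedling values fall on either side.

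Gene families were then read by list, with 1 probe set per gene. Over all 16420 genes tested, 19.6% were higher in root than the mean of the 3 tissues, 10.0% lower, 4.73% higher than each and 1.36% lower than each, with a median difference of 0.07. Over the 2318 genes with a readable symbol, from which the lists were drawn, these shares were 23.7%, 10.1%, 6.04% and 1.73%, with a median of 0.17. The lists are described by counts and were not tested as sets. Of 17905 genes on the array 2454 had a readable symbol, so a list holds the members found by name and not a whole family.

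By role, uptake genes are described first, although the share higher in root was larger for defence genes (80.6%). Of 140 tested transporters, channels and their partners, 71 were higher (50.7%), 5 lower and 24 higher than each, with a median difference of 1.17. Leaf was the next highest tissue in 53 of the 71, and 31 of the 71 were also called higher than leaf.

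Silicon and aluminium genes stood out most. Of 9 tested genes 7 were higher, none lower and 5 higher than each, with a median of 3.30. Lsi1, the channel through which silicic acid enters rice roots, read 17616 and 17769 in root, 989 and 815 in leaf, 22.4 and 118 in endosperm and 42.6 and 31.2 in embryo (6.87 ± 0.44, adjusted p = 3.51e-06, gap 4.28). Lsi2, the efflux carrier on the inner side of the same cells, read 4613 and 5726 in root and no more than 58.3 in embryo, endosperm and leaf (7.43 ± 0.46, gap 6.63). The related Lsi6, known for unloading silicon from the xylem in shoots, was higher than the mean (2.69 ± 0.30) but not root-preferred: leaf read 5137 and 5392 against 4149 and 2450 in root, a gap of -0.72. Nrat1, which carries aluminium into root cells, read 5751 and 4076 in root and 267 and 279 in embryo, its next highest tissue (6.01 ± 0.43). ART1, the zinc-finger factor of aluminium tolerance, read 4726 and 2781 against 656 and 675 in leaf (3.60 ± 0.45, gap 2.42). EXPA10 and MRS2-E in this list were not called (-0.47 and 0.96).

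Water channels were split. Of 23 aquaporin genes 12 were higher, 3 lower and 6 higher than each, with a median of 1.34. Beside OsTIP2;1 and Lsi1, RWC3, a plasma membrane water channel, read 6020 and 11713 in root against 500 and 325 in leaf (5.69 ± 0.36, gap 4.33). OsTIP1;2 read 6688 and 1858 against 251 and 200 in leaf (5.13 ± 0.47; 4.21 and 6.05). The 3 lower genes were highest in other organs. OsTIP3;1, of the seed vacuole type, read 93.2 and 42.9 in root against 33678 and 27197 in embryo and 49817 and 41741 in endosperm (-5.86 ± 0.27), and TIP3-2 followed it (-3.31). OsNIP1;1 read 400 and 925 in root against 11087 and 10896 in leaf (-2.13 ± 0.30; -1.54 and -2.72). PIP2-7 was high in leaf at 9010 and 7471, read 37.3 and 321 in root, and was not called (-1.42; -0.09 and -2.75).

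Nitrogen genes were mostly higher, with root array 1 well above root array 2. Of 17 nitrate and ammonium genes 10 were higher and 1 lower, with a median of 2.0. Without probe sets that may cross-hybridize (suffix x_at or s_at) 7 of 14 were higher and 1 lower, with a median of 1.35. Of the 17 genes 8 were at least 2-fold higher on root array 1 and none on root array 2. AMT1-2, an ammonium transporter gene, read 3470 on root array 1, 104 on root array 2 and at most 38.6 in embryo, endosperm and leaf. It was called (4.41 ± 0.98, adjusted p = 0.00654 in limma), with 1.97 without root array 1 and 6.84 without root array 2. Its root arrays lay far apart, so this ± and adjusted p, from the spread shared by all tissues, understate root's own spread. The high-affinity nitrate transporter genes NRT2.2 (1609 and 120) and NRT2.3 (2174 and 295), both read on x_at probe sets, had the same pattern, with differences of 3.85 (2.06 and 5.64) and 3.49 (2.08 and 4.90). They were the only 2 of the list higher than each tissue, and 5 passed without root array 2 or without endosperm array 1. OsAMT1;1 was shared with leaf, at 9418 and 3945 in root against 3373 and 2337 in leaf (3.80 ± 0.35; 3.17 and 4.42), a gap of 1.11 that was not called. GLN1-3, a cytosolic glutamine synthetase gene, was lower (-1.24 ± 0.33), at 192 and 253 against 8127 and 6370 in endosperm, and its call was lost without root array 1. The same held with an added constant of 1, scaling to the spike-ins, array weights and a test against 2-fold.

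Phosphate genes gave fewer calls. Of 13 tested 4 were higher and none lower, with a median of 0.61. PHO1-2, known for loading phosphate into the root xylem, read 7619 and 12305 in root and 2413 and 761 in endosperm, the next highest (3.61 ± 0.39, gap 2.82). Its 2 other probe sets gave -0.25 and -0.34 and were not called. OsPht1;8 and OsPht1;1, uptake carriers of the plasma membrane, were close in leaf and root: OsPht1;1 read 5446 and 3740 in root and 5448 and 4488 in leaf (2.98 ± 0.23, gap -0.13), and another probe set of that gene was not called (adjusted p = 0.998). OsPht1;2 read 1290 on root array 1 and 36.3 on root array 2, and was not called (2.33 ± 0.99, adjusted p = 0.101; 0.01 and 4.65, the latter with adjusted p = 0.00206).

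Potassium and sodium genes were higher in 7 of 23 and lower in none, with a median of 0.52. HAK1, a high-affinity potassium carrier gene, read 7908 and 3352 in root and 2729 and 2630 in leaf (3.77 ± 0.35; 3.15 and 4.39), and the channel gene AKT1 read 1627 and 1160 against 1065 and 1315 (1.72 ± 0.25). Neither was called against leaf. OsHKT1;5, which takes sodium back out of the xylem, was the one member higher than each, at 202 and 369 in root and at most 36 in embryo, endosperm and leaf (3.21 ± 0.37).

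Iron genes were higher in 11 of 21 and lower in 1, with a median of 1.04, and most had leaf next. NAS2, for nicotianamine synthase, read 19210 and 29620 in root, 10577 and 8401 in leaf and no more than 117 in embryo and endosperm (5.98 ± 0.42). NAS1 followed it, at 19356 and 19187 in root and 10396 and 9121 in leaf (3.44 ± 0.34). Neither was called against leaf (adjusted p = 0.0938 and 0.123). NAS3 was, at 8338 and 9103 against 1731 and 1808 in leaf (gap 2.29, adjusted p = 0.00188). In the whole seedling NAS2 read 491 and 211, far below both leaf and root. The ferrous iron carrier gene IRT1 read 1557 and 1218 in root against 215 and 225 in leaf (3.99 ± 0.34). YSL15, for the carrier of iron bound to mugineic acid, read 2853 and 597 in root against 877 and 635 in leaf, so that root array 2 lay below both leaf arrays (3.15 ± 0.55; 2.04 and 4.26). IRT2 read 2472 on root array 1 and 179 on root array 2 and was not called (2.02; 0.19 and 3.86, the latter with adjusted p = 0.00478). IDEF1, a factor of the iron deficiency response, was lower in root (-1.63 ± 0.23), at 241 and 210 against 1120 and 1047 in endosperm.

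Genes for other metals, sulfate and boron were higher in 22 of 36 and lower in none, with a median of 1.48. Of these, 7 were higher than each, and 3 with either leaf array left out. Metallothioneins, small proteins that bind metals, led them. MT4A read 21241 and 15298 in root against 5314 and 2640 in leaf (5.12 ± 0.34), and MT1B 11801 and 6987 against 2364 and 3200 (4.11 ± 0.31). MT2B was also high in leaf, at 28833 and 40751 in root against 24371 and 22747 (4.08 ± 0.66, gap 0.54), and its difference was 3.49 without endosperm array 1 and 4.67 without endosperm array 2. COPT2, of the copper transporters, was highest in embryo and not called, at 359 and 59.6 in root against 11348 and 8201 (-1.48; -2.64 with adjusted p = 0.00402, and -0.33).

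**Figure D3:**
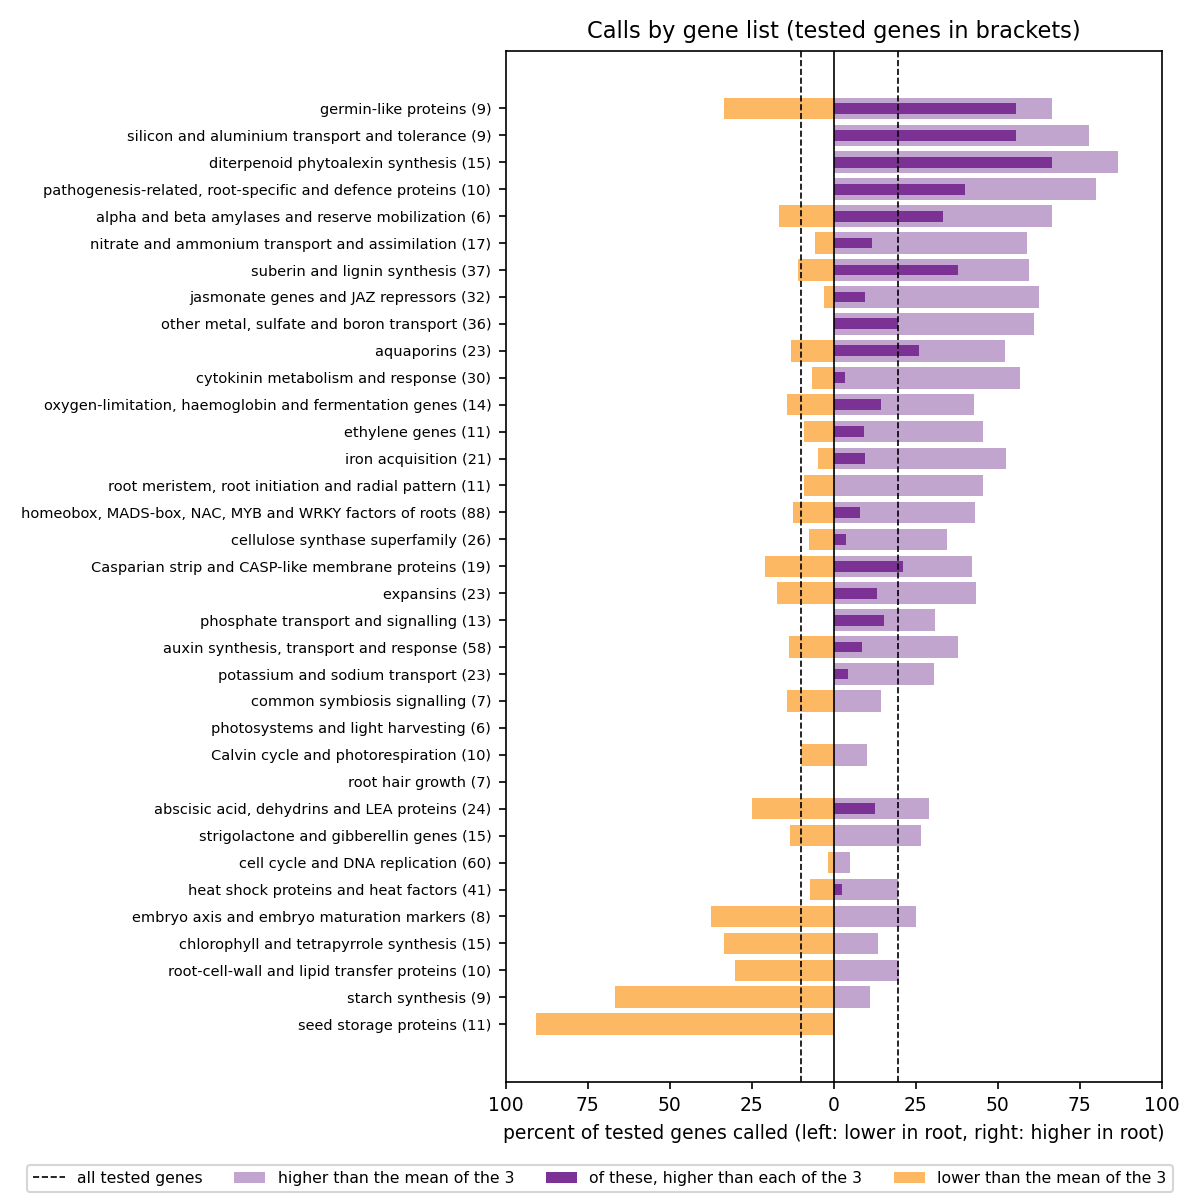
For each list of at least 5 tested genes, bars give the percent called higher (right) or lower (left) in root than the mean of embryo, endosperm and leaf, with the part higher than each tissue in dark purple; dashed lines mark 19.6% and 10.0%, the shares over all tested genes. Germin-like, silicon and diterpenoid genes are at the top by median difference and seed storage genes, 10 of 11 lower, at the bottom.

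Barrier and cell wall genes formed the next group. Of 66 Casparian strip, suberin and lignin, and wall or lipid transfer genes, 32 were higher, 11 lower and 18 higher than each. OsCASP1, which organises the Casparian strip of the rice endodermis, read 851 and 1176 in root and no more than 29.2 in embryo, endosperm and leaf (5.23 ± 0.41, gap 4.94). In the seedling it read 75.9 and 39.9. Its relatives were mixed: of 19 CASP and CASP-like genes 8 were higher and 4 lower. OsCASPL1D1 read 8163 and 970 in root and at most 141 in embryo, endosperm and leaf (4.89 ± 0.66; 3.36 and 6.41), and OsCASPL1C2 3238 and 780 against 197 and 226 in leaf (3.98; 2.97 and 5.0). On the other side OsCASPL2A1 read 592 and 481 in root and between 3433 and 5662 on the 6 other arrays (-3.11 ± 0.17), lower than each.

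Suberin and lignin genes were higher in 22 of 37 and lower in 4, with a median of 2.0. The share higher than each was 37.8%, against 4.73% of all tested genes. That share was larger in diterpenoid (66.7%), silicon and aluminium (55.6%), germin-like (55.6%), pathogenesis-related (40%) and the 2 peroxidase genes (100%). The number higher than each was 14, the largest count of any list but not the largest share. Without leaf array 1 it was 5, without leaf array 2 it was 8 and without root array 1 it was 7. It was 9 with an added constant of 1 or a common median, 8 on the spike-ins, 6 with the Gapdh covariate and 2 in a test against 2-fold. CAD8A, of the cinnamyl alcohol dehydrogenases, read 5392 and 3227 in root, 1084 and 1399 in leaf and at most 14.7 in embryo and endosperm (5.65 ± 0.39). The laccase genes LAC10 and LAC24, of the enzymes that join lignin units, read 2525 and 5294, and 2450 and 709 (4.68 ± 0.34, and 4.83 ± 0.54 with 3.95 and 5.71). ABCG48, an ABC transporter gene, was 4.74 higher. Members of the same enzyme families were lower: CAD3 read 151 and 59.9 in root against 2454 and 2909 in embryo (-3.52 ± 0.56), and 4CL2, for a coumarate ligase, 70.7 and 85.2 against 1103 and 1205 (-2.22 ± 0.39).

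Lipid transfer proteins, which carry lipids toward outer surfaces, had a median of -0.68 together with BURP-domain genes. Of 10 measured lipid transfer and BURP-domain genes 2 were higher and 3 lower, and 5 were lower without endosperm array 1. LTP read 1224 and 610 in root and 6126 to 17379 on the 6 other arrays (-3.42 ± 0.26), lower than each. LTP110-A was also lower than each (-2.84 ± 0.33; -3.62 and -2.07). The largest fall was that of LTP-2 (-4.27). The 2 higher genes were both of the BURP-domain type, BURP17 (4.40) and BURP2 (2.44 without root array 1 and 5.07 without root array 2). BURP3 was not called.

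Of 23 expansin genes, whose proteins loosen walls during growth, 10 were higher and 4 lower, and 7 were at least 2-fold higher on root array 1 with none higher on array 2. EXPB2 read 8921 and 1348 in root and 146 and 180 in leaf (6.24 ± 0.61; 4.89 and 7.60). EXP3 read 2417 and 721 against at most 49.2 elsewhere, the seedling included at 26.5 and 37.2 (5.24 ± 0.50; 4.38 and 6.11). EXPB6 read 8427 and 4835 (3.82 ± 0.44). The number higher than each was 3, and 5 with either endosperm array left out. EXP5 and EXLA4 were lower and highest in embryo (-1.64 and -2.14). In the cellulose synthase superfamily 9 of 26 were higher and 2 lower. The subunits of the secondary wall complex moved together and shared leaf as next tissue: CESA4, CESA7 and CESA9 were higher by 3.36, 3.82 and 3.71, with gaps over leaf of 0.69, 0.40 and 0.86 that were not called.

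Of 210 development genes 11 were higher than each (5.24%), close to the 4.73% of all tested genes. Of 11 genes of root meristem, root initiation and radial pattern 5 were higher, 1 lower and none higher than each, and 3 were higher without leaf array 1 or root array 2. The largest was OsABCG5, a transporter gene known from suberin in the rice exodermis rather than from the meristem (877 and 600 in root, 198 and 252 in leaf, 3.76 ± 0.46). SHR1, of the radial pattern pathway, read 322 and 216 in root and 166 and 175 in embryo (1.48 ± 0.45), and lost its call with any 1 root, embryo or leaf array left out. SHR1 also lost it with an added constant of 1, no signal filter, array weights and a test against 2-fold. SCR1, its partner, was not called (0.97). None of 7 root hair genes was called in limma, and 2 had an unadjusted p under 0.05. With endosperm array 1 left out 1 was higher, and with endosperm array 2 left out 1 was lower.

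Cell cycle and DNA replication genes showed few calls, with 3 of 60 higher, 1 lower and a median of 0.04 (-0.10 after quantile normalization). They separated the root arrays instead: 15 of 60 were at least 2-fold higher on root array 2 and 1 on root array 1. Without root array 2, 5 were lower and none higher. CYCD2-2, a D-type cyclin gene, was the one lower than each (-1.90 ± 0.24), at 121 and 145 in root and 438 to 620 on the 6 other arrays.

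Among 88 homeobox, MADS-box, NAC, MYB and WRKY genes, 38 were higher and 11 lower. The number higher than each was 7, and 2 with either leaf array left out. MYBAS1 read 1435 and 2716 in root and 489 and 404 in leaf (5.08 ± 0.34), HOX12 1344 and 1414 against 239 and 176 (4.30 ± 0.31), and MADS26 1375 and 1156 against 193 and 210 (3.98 ± 0.46). MADS7 and MADS8, known from flowers, were lower and highest in endosperm (-3.35 and -3.29). WOX10 was highest in embryo (-3.27).

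**Figure D4:**
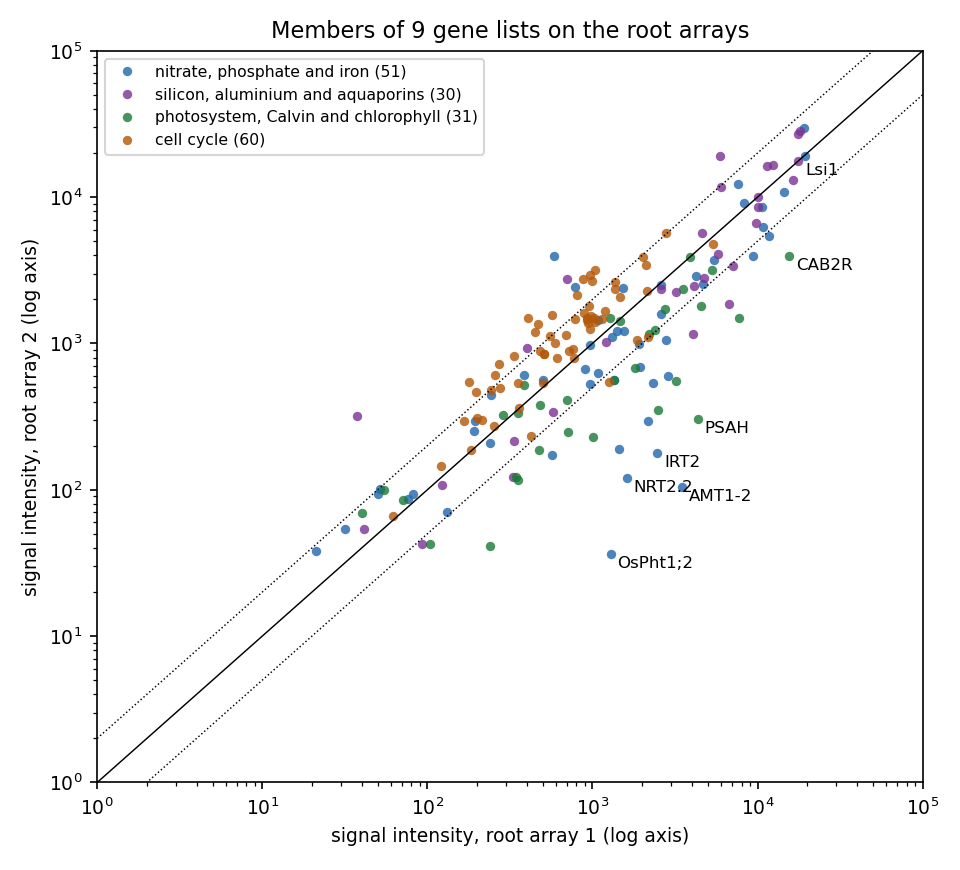
Signal intensity is shown on root array 1 (x axis) against root array 2 (y axis), both log axes. Points are members of the nitrate and ammonium, phosphate, iron, silicon and aluminium, aquaporin, photosystem, Calvin cycle, chlorophyll and cell cycle lists. The solid line marks equal signals and the dotted lines 2-fold. AMT1-2 (3470 and 104) and PSAH (4354 and 306) fall far below the line, and other uptake genes such as NAS2 (19210 and 29620) above it. At least 15 of 60 cell cycle genes fall above the upper dotted line.

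Hormone genes were higher in 75 of 169 and lower in 20, with 13 higher than each. Leaf was the next highest tissue in 55 of the 75, and in 31 of them another tissue was above root. Of 58 auxin genes 22 were higher and 8 lower. IAA20 and IAA12, of the Aux/IAA repressors, were higher than each: IAA20 read 839 and 1212 in root against 108 and 97.6 in embryo (3.92 ± 0.41), and IAA12 3406 and 3860 against 1248 and 1626 (3.13 ± 0.30). PIN2, for an auxin efflux carrier of the root tip, read 501 and 961 in root, 302 and 288 in embryo and 15.5 to 45.8 in endosperm, leaf and seedling (2.92 ± 0.35). Another repressor gene went the other way. IAA14 read 10.2 and 6.91 in root, 196 to 762 in the 3 other tissues and 884 and 746 in the seedling (-3.90 ± 0.30), with a gap of -3.33 below embryo. ARF24, an auxin response factor gene, was also lower than each (-2.09 ± 0.18). The number higher than each was 5, and 3 without embryo array 1.

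Cytokinin genes were higher in 17 of 30 and lower in 2, but 11 were higher with either root array left out. Most were shared with leaf: 1 was higher than each, CHARK, a receptor-like kinase gene (1169 and 323 in root, 182 and 119 in leaf, 2.93 ± 0.49; 2.03 and 3.83). RR9, a response regulator gene, was higher than the mean (3.04; 2.37 and 3.71), as was CKX4, for a cytokinin-degrading oxidase (2.83).

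Jasmonate genes were higher in 20 of 32 and lower in 1, with 3 higher than each. LOX3, a lipoxygenase gene also named r9-LOX1, read 1239 and 3359 in root and at most 70.4 in embryo, endosperm and leaf (5.78 ± 0.56; 6.49 and 5.06). LOX3 entered the list by its symbol, and a part of it in jasmonate synthesis was not tested. OPR5, of the oxophytodienoate reductases, read 13318 and 2668 against 1297 and 1180 in leaf (5.75 ± 0.54; 4.59 and 6.91). AOS4, for an allene oxide synthase, read 4927 and 956 against 277 and 356 (4.43; 3.25 and 5.6). The JAZ repressor gene TIFY11A was higher than the mean (3.11 ± 0.33) although leaf, at 7918 and 6152, was above root, at 4610 and 6151.

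Ethylene genes were higher in 5 of 11, among them ACS1 and ACS2 for the rate-setting synthase (2.48 and 2.80), and ACS1 was higher than each. The receptor gene ETR4 was the one lower, at 3.53 and 7.91 in root and 12006 and 8009 in embryo (-4.05 ± 0.31). Of 15 strigolactone and gibberellin genes 4 were higher and 2 lower, and D14, the strigolactone receptor, read 9191 and 8710 in root and 8817 and 7498 in leaf (2.79 over the mean, gap 0.14). Abscisic acid and LEA genes divided evenly, with 7 of 24 higher and 6 lower. RAB16D, a dehydrin gene, read 2594 and 1827 in root against 278 and 467 in embryo (4.75 ± 0.45), and salT, a lectin gene named for salt, 17513 and 26552 against 6565 and 9755 in leaf (4.18 ± 0.24). EM and VP1, of embryo maturation, were lower (-3.45 and -3.54).

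Defence genes had the largest share of root-preferred members. Of 36 tested 29 were higher (80.6%), 3 lower and 21 higher than each, with a median of 3.14. Diterpenoid phytoalexin genes were higher in 13 of 15, lower in none and higher than each in 10, or 6 without leaf array 1. CPS4, the cyclase that commits precursors to momilactones, read 1392 and 2084 in root, 72.6 and 140 in leaf and at most 101 in embryo and endosperm (4.53 ± 0.48, gap 3.87). CYP99A3, of the same gene cluster and pathway, read 3327 and 2227 against 122 and 255 in leaf (4.57 ± 0.37). CPS2, the cyclase of the phytocassanes, read 293 and 1004 (4.05 ± 0.49; 4.91 and 3.18), and CYP71Z7, a P450 gene of that pathway, 1433 and 1821 (4.26 ± 0.32). In the whole seedling these genes were close to root, with a median seedling level 0.07 above root over the 10, and the seedling was above all 3 tissues in each of the 10. KSL5 and KSL10 were not called.

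Chitinase and pathogenesis-related genes were higher in 8 of 10. PBZ1, a PR10 protein gene, read 14287 and 11603 in root against 3191 and 2481 in leaf (4.35 ± 0.37), and the chitinase gene Cht2 5832 and 1854 against 793 and 750 (5.04; 4.22 and 5.86). Cht4 and chia4a, chitinase genes too, were highest in leaf and not called (-0.93 and -0.82). Cht4 gave -0.22 without root array 1 and -1.65 without root array 2, the latter with adjusted p = 0.0171.

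The 9 germin-like genes found by name, which code for cell wall proteins, were all called, 6 higher and 3 lower, with 5 higher than each. The number higher than each was 2 with the Gapdh covariate and 2 in a test against 2-fold. It was also smaller without root array 1 or either leaf array. GER8, of the 3 lower, gave -1.95 (-1.32 and -2.59). Its call was lost without root array 1, with an added constant of 1 and against 2-fold. GER2 read 11117 and 4602 in root and at most 195 in the 3 tissues (5.95 ± 0.40; 5.32 and 6.59). GER4 read 8837 and 6614 against 763 and 1211 in embryo (4.47 ± 0.30). GER6 read 7012 and 687 (5.33; 3.67 and 6.99). By contrast GER5 read 19.9 and 188 in root and 14455 and 15152 in leaf (-3.16; -1.91 and -4.41), and GER3 was highest in endosperm (-2.81; -3.89 and -1.73). The 2 class III peroxidase genes found by name were higher than each, PRX74 by 5.19 ± 0.28 and PRX112 by 3.90 ± 0.62 (2.93 and 4.86) over the mean. A second probe set of PRX112 was called lower (-1.45).

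Metabolic genes included several of low oxygen and of reserve use. Of 14 haemoglobin and fermentation genes 6 were higher and 2 lower. NSHB1, a non-symbiotic haemoglobin gene, read 6676 and 1044 in root against 810 and 353 in embryo (3.77; 2.44 and 5.10). AOX1a, for the alternative oxidase, read 3541 and 862 against 272 and 342 in leaf (3.83; 2.82 and 4.84). Adh2, for alcohol dehydrogenase, read 14290 and 12222 in root against 455 and 537 in leaf (2.86 ± 0.52), with endosperm next at 11917 and 2515. The amylase and reserve list had 4 of 6 higher. ICL, for the glyoxylate cycle enzyme isocitrate lyase, read 1404 and 270 in root, at most 67.8 in the other 3 tissues and 4530 and 4855 in the seedling (3.46; 2.31 and 4.62). AMY3E, another alpha-amylase gene, opposed AMY1.1: it read 78.3 and 33.1 in root and 23353 and 18209 in embryo (-3.40 ± 0.48). Heat shock genes were near the background, with 8 of 41 higher and 3 lower; 5 were lower without root array 1 and 6 without root array 2.

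Seed genes made up part of the falls, with 16 of 20 endosperm markers and 3 of 8 embryo markers among the 88 lower genes of all lists. Of 11 seed storage genes 10 were lower and none higher, with a median of -5.94, and none was lower than each. Without x_at and s_at probe sets 5 of 8 were lower, with a median of -4.53. Starch genes were lower in 6 of 9. GBSS1, the granule-bound synthase that makes amylose, read 33.2 and 38.9 in root on 1 probe set, against 33847 and 33952 in endosperm and 109 and 116 in leaf (-6.05 ± 0.23), and a second probe set gave -6.11. SUS3, a sucrose synthase gene, read 32.3 and 25.2 against 29368 and 31325 in endosperm (-5.92 ± 0.27). RSR1, a regulator of starch genes, was the one higher (3.21 ± 0.36), with leaf next.

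In other falls leaf, embryo and endosperm were each called above root. SWEET11, a sucrose carrier gene known from the filling grain, read 93.4 and 96.8 in root, 1183 and 1620 in embryo, 27476 and 22516 in endosperm and 2134 and 2359 in leaf (-5.27 ± 0.21). It was called against all 3 tissues, with embryo, the lowest of them, 3.66 above root. PMEI8, for a pectin methylesterase inhibitor, read 67.9 and 34.3 in root, 540 and 551 in leaf and 18914 and 15294 in embryo (-5.14 ± 0.27). AGPS2, the small subunit of ADP-glucose pyrophosphorylase, read 560 and 345 in root against 3332 and 3817 in leaf and 42561 and 29199 in endosperm (-4.39 ± 0.23). GRF4, a growth-regulating factor gene, read 45.8 and 17.4 in root against 152 and 164 in endosperm and 11509 and 8017 in embryo (-4.35 ± 0.31). OsPP2C73, for a protein phosphatase, read 62.3 and 65.2 against 121 to 4805 on the other 6 arrays (-3.99 ± 0.30). In each of these 5 genes the seedling arrays were above both root arrays. The largest falls of genes known by identifier alone, LOC4332760 and LOC4342721, were -6.73 and -6.63, and leaf was close to root in both (22.2 and 2.72 against 34.5 and 35.8, and 9.36 and 15.1 against 17.5 and 20.6).

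Leaf genes were set against the mean and against leaf itself. None of the 6 photosystem genes was called against the mean in limma (1 had an unadjusted p under 0.05), and 3 were called lower than leaf, with a median of -2.90 against leaf. Of 15 chlorophyll and tetrapyrrole genes 5 were lower than the mean and 12 lower than leaf. Among the leaf markers 15 of 31 were at least 2-fold higher on root array 1 and none on root array 2. CAB2R, for a light-harvesting protein, read 15512 and 3976 in root against 21118 and 18283 in leaf, and PSAH, of photosystem I, 4354 and 306 against 14483 and 11209. GLK2, a factor of chloroplast development, was low on both root arrays, at 54.8 and 99 against 4398 and 3728 in leaf (-2.85 ± 0.31), and another probe set of it was not called (-1.34). MFT2, an embryo gene, read 1062 on root array 1 and 6.61 on root array 2, against 27539 and 21312 in embryo.

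The whole seedling, which contains root and shoot, had no weight in the contrasts, although its arrays entered the estimate of the spread. Without the seedling arrays 4583 probe sets were higher than the mean, 2957 lower, 1050 higher than each and 298 lower than each. The seedling stood above embryo, endosperm and leaf in 820 of the 1225 probe sets and between them and root in 712. Its median level was 1.70 below root on the log2 scale, over a range from 6.93 below to 2.89 above. Root array 1 was above root array 2 in 817 of the 1225. Lsi1, at 9878 and 4725, and CML29, at 3926 and 3831, were among the genes well kept in the seedling, whereas OsTIP2;1, NAS2 and EXP3 were not.

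**Figure D5:**
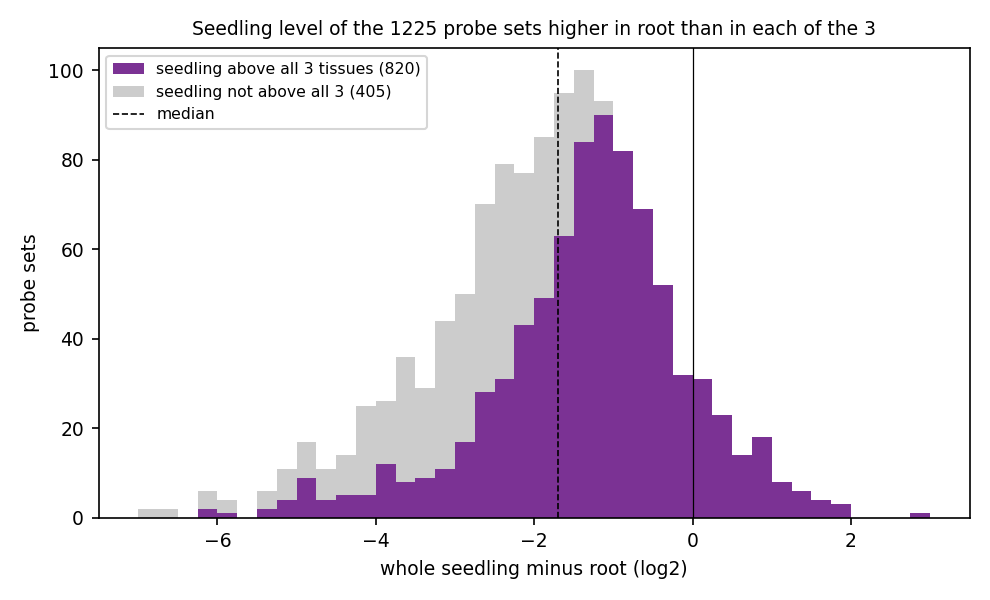
Distribution of the whole seedling's mean log2 signal minus root's over the 1225 probe sets higher in root than in each of embryo, endosperm and leaf. The dashed line is the median, -1.70, and purple marks the 820 probe sets in which the seedling was also above all 3 tissues.

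At the 2-fold threshold itself, CatB, HOS58 and CESA8 were called and TIFY10C, PNG1 and HAK7 were not. All 6 differences rounded to 1.0 on the log2 scale.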

How the data were processed

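Linear signal intensity values, as the authors deposited them for every probe set, were made with MAS5 per the submitters' processing notes (version not given in the sources used here). RNA was extracted with TRIzol, labelled with biotin and hybridized to the Affymetrix rice genome array, per the labels' protocols. The deposited values have a mean of 500 per array after trimming (2% to 98%). Precision is limited by the number of arrays.

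The 123 control probe sets were left out, signals were scaled to that trimmed mean, 16 was added and log2 taken. All 10 arrays entered one fit in limma 3.58.1 (R 4.3.3), which estimated 5 tissue means with an intensity trend in eBayes (5 residual and 5.14 prior degrees of freedom). Contrasts were root minus the equal-weight mean of embryo, endosperm and leaf, and root minus each. The gap is root minus the highest of the 3 means. For falls it is root minus the lowest of the 3 means, and medians of it are given without sign. Adjusted p-values (Benjamini-Hochberg) cover all 30014 tested probe sets. The ± is the standard error of the contrast, from the spread shared by the 5 tissues.

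Of 57381 probe sets, 22436 had 1 gene in the array's annotation, 95 several and 34850 none; symbols came from a RefSeq gene table. A gene was represented by its probe set with the highest mean signal. Genes named in the text come from the 15 largest rises and 10 largest falls, the 10 and 5 largest gaps above and below (both root arrays beyond the other 6), up to 4 rises, 3 falls and 2 uncalled members per list, genes around the 2-fold minimum, known root genes, and 2 rises and 2 falls by identifier. Of 38 known names, 27 were found and tested; the other 11, such as RCc3 and NRT2.1, were not analysed here. The lists and rules were chosen with earlier results of these data known, and list members that matched only through a shared synonym were dropped after seeing the annotation. Sequences were not used here.

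Replicate numbers did not pair the tissues: deviations of same-numbered arrays correlated from -0.108 to 0.0962. Alternatives were other added constants, scalings, filters, array weights, a test against 2-fold, no fold minimum, the Gapdh ratio as covariate, a block for replicate number, and each array left out in turn. List medians were also taken without x_at and s_at probe sets.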

Additional observations from a re-analysis of the deposited data

How the results depend on the processing

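The 4 counts (4843 higher and 3159 lower than the mean, 1225 higher and 340 lower than each) stayed within 1.5 times under most of the 25 alternatives. A test against 2-fold left 2148, 866, 356 and 77. Scaling to the spike-ins left 1627 lower and 121 lower than each, and array weights 1962 and 222. The Gapdh covariate, which mainly sets root array 1 against root array 2, left 761 higher than each. Leaving out 1 array gave 4349 to 5510 higher, 2678 to 3529 lower, 580 to 1533 higher than each and 180 to 514 lower than each. With the replicate block the counts were 4843, 3111, 1211 and 330, and no named gene lost its call. Of 189 named genes called, 143 kept the call under every alternative and none turned its sign; 46 lost it against 2-fold, 14 with array weights, 12 without root array 1 and 18 without root array 2. List medians near 0 changed sign: cell cycle, 0.04, was -0.10 after quantile normalization, -0.02 at a common median, -0.00 without endosperm array 1, and 0.27 and -0.34 without root array 1 or 2; heat shock, -0.06, was 0.34 on the spike-ins, 0.06 without endosperm array 1, and 0.15 and 0.03 without root array 1 or 2. Over all arrays left out in turn the heat shock median ran from -0.09 to 0.15. The Calvin cycle and photorespiration median, 0.27, was -0.31 without x_at and s_at probe sets. It was -0.01 with all probe sets of a gene averaged. The nitrogen list had 6 genes higher, not 10, at a minimum signal of 200, and potassium 11, not 7, on the spike-ins. The cause was not tested. With 2 arrays a tissue, no array could be tested as standing apart from its group.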
